A study of Mus musculus with 11 samples.

Results

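The brush border nutrient and ion transporters are 9 genes of the small intestinal enterocyte, chosen by name, and all 9 were among the 45777 genes of the table. *Slc5a1*, *Slc2a2* and *Slc2a5* carry sugars, *Slc15a1*, *Slc6a19*, *Slc7a9* and *Slc3a1* carry peptides and amino acids, and *Slc26a3* and *Slc9a3* exchange ions. They were followed in 5 small intestine libraries, 3 from control mice and 2 from mice with psoriatic skin inflammation, with 3 control and 3 treated skin libraries as a contrast. All mice were BALB/c, female or male, bought at 6 to 8 weeks of age and treated at 8 to 10 weeks. Treated mice received 62.5 mg per day of a cream with 5% imiquimod (IMQ), which binds TLR7 in endosomes, on shaved skin, and control mice received Vaseline. The labels give 5 to 8 days with the back and the right ear as the site, and the methods give up to 7 days on the back. The cream base and IMQ itself cannot be told apart, because the control was not the base of the IMQ cream. The stretch of small intestine taken and the tissues that came from one mouse are not given in the sources used here, so p-values measure only the spread between these libraries.

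Enterocytes take up the products of digestion through carriers in the brush border, the microvillus membrane that faces the gut lumen. SGLT1 (*Slc5a1*) moves glucose and galactose in with sodium, GLUT5 (*Slc2a5*) lets fructose in, and GLUT2 (*Slc2a2*) releases sugars mainly on the blood side, although it is grouped here with the brush border carriers. PEPT1 (*Slc15a1*) takes up small peptides with protons, and the sodium-coupled carrier of *Slc6a19* takes up neutral amino acids. The proteins of *Slc7a9* and *Slc3a1* are the light and heavy subunits of one carrier for cystine and dibasic amino acids, whose loss causes cystinuria. The exchangers DRA (*Slc26a3*, chloride for bicarbonate) and NHE3 (*Slc9a3*, sodium for protons) work side by side in salt absorption.

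Stretches upstream of 4 genes are shown with RefSeq transcript starts on GRCm38.p6, the build called mm10, all on the plus strand and written from 5′ to 3′. *Slc2a5* is the 1 member that passed the test for a change in the small intestine, though not in every fit with a library left out. *Slc2a2* is the other member with both IMQ libraries above the controls. *Slc3a1* holds matches to 3 different motifs, and *Slc26a3* holds 2 matches to one motif close to each other. Capitals mark matches to short binding motifs of enterocyte transcription factors, searched on both strands in the 250 bases before the start.
Slc2a5, chr4:150119094-150119235: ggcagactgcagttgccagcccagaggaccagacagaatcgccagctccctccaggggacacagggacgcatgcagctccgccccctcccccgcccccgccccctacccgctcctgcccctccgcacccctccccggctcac
Slc2a2, chr3:28697653-28697902: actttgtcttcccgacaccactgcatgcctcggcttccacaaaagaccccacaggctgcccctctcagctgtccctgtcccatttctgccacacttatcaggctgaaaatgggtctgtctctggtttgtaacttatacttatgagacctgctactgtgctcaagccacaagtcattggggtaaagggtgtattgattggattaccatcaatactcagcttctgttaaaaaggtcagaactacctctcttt
Slc3a1, chr17:85028097-85028346: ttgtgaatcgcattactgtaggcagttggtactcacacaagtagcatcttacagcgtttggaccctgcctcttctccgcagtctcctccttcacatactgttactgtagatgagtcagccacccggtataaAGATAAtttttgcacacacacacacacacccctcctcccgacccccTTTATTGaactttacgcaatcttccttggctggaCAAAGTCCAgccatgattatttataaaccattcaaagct
Slc26a3, chr12:31437969-31438216: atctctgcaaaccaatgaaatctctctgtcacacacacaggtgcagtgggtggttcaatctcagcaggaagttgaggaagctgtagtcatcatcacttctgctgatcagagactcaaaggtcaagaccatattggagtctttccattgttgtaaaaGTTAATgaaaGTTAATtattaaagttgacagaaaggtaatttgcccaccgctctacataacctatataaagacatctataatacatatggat

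The stretches of *Slc2a5* and *Slc26a3* stop at the first annotated exon base, at 142 and 248 bases, and that of *Slc26a3* lies inside the span of the gene, since a longer transcript starts further upstream. CAAAGTCCA, an HNF4 motif, was found in 0.384% of 32851 mouse promoters and, among the members, in *Slc3a1*. TTTATTG, a CDX motif, was in 4.20% of promoters and in *Slc3a1*. GTTAAT, one arm of the HNF1 motif, was in 6.43% of promoters and in *Slc26a3*, at 94 and 84 bases before the start. AGATAA, bound by factors of the GATA family, was in 9.99% of promoters and in *Slc3a1* and *Slc7a9*. The full HNF1 motif, which is GTTAAT, any 1 base and the reverse complement of GTTAAT, was in 3 promoters and in none of the members. The *Slc2a5* and *Slc2a2* windows held none of these letters, which says nothing about the factors. The G and C content of the whole 250-base window was 66.4% for *Slc2a5* and 47.2% for *Slc2a2*, against a median of 52.4% over all promoters.

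The 11 libraries had 44995414 to 58526384 counts, and pairs of libraries within a group differed beyond sampling noise, with a chi-square per degree of freedom of 36.9 to 251. All 10 epithelial markers were expressed in the small intestine, among them *Cdh17* at 575 to 889 TPM (transcripts per 1e6, scaled by length), and the 7 epidermis markers summed to at most 3.82 TPM there. *Fabp6*, a gene of the ileum, was at 0.476 to 3.11 TPM and *Cybrd1*, a duodenal iron reductase, at 1.42 to 3.12 TPM. The summed proximal markers were 7959, 3290.4 and 4968 TPM in the controls and 11334 and 14160.3 TPM in the IMQ-treated mice, and most of each sum was *Fabp1* (7289, 2664 and 4504 TPM, and 10706 and 13626 TPM). Skin control replicate 2 carried intestinal transcripts. Over the 147 genes with a mean of at least 50 TPM in control small intestine and no count in skin control replicates 1 and 3, it had counts for 140, at a median of 1.13% of the control small intestine level. The IMQ-treated skin libraries had counts for 37 to 94 of these genes, at medians of at most 0.0309%.

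In the control small intestine the mean level per transcript length ran from 937 ± 287 TPM (SD, n = 3) for *Slc5a1* to 75.6 ± 12.3 TPM for *Slc2a5*. The 9 genes together made up 0.182% to 0.312% of all TPM in the 5 libraries. *Slc5a1* (Entrez Gene 20537) was the most abundant, with 636, 964 and 1209 TPM in control replicates 7, 8 and 9. Its lowest control library stood above the highest library of every other member. *Slc15a1* followed with 193, 373 and 459.7 TPM and *Slc6a19* with 213, 290.2 and 505 TPM. The subunit genes *Slc7a9* (192, 276 and 281 TPM) and *Slc3a1* (138, 179 and 244 TPM) came next. *Slc2a2* had 185, 96.1 and 163 TPM, the only member with its lowest control value in replicate 8. At the low end stood *Slc26a3* with 95.3, 119 and 98.2 TPM, *Slc9a3* with 104, 86.5 and 77.4 TPM, and *Slc2a5* with 62.0, 78.9 and 85.9 TPM. Below *Slc5a1*, the ranges of each pair of neighbours in this order overlapped, so their order is not separated by the spread over the 3 controls.

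**Figure D1:**
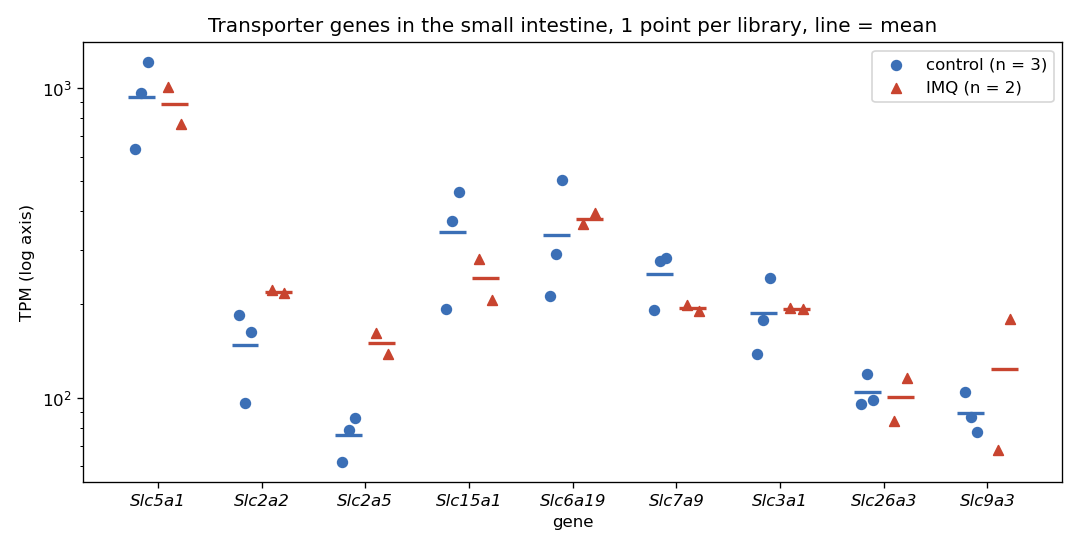
TPM of the 9 transporter genes in each small intestine library, on a log axis, with control libraries as circles, IMQ libraries as triangles and the mean of each group as a line. *Slc5a1* lies above the other genes, and the IMQ libraries of *Slc2a5* (161 and 139 TPM) lie above its 3 controls (62.0 to 85.9 TPM).

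The response of the transporters to IMQ in the small intestine was mostly within the spread of the libraries, and *Slc2a5*, the fructose carrier, was the exception. The quasi-likelihood test of edgeR, with p-values adjusted over all genes by Benjamini and Hochberg, called 1 of the 9 at an adjusted p under 0.05, against 2.95% of the 19965 genes tested and 2.77% that were called higher. The median log2 fold change of the 9 was 0.06, and that of all genes was -0.02. In normalized counts, 2 members had both IMQ libraries above all 3 controls, a pattern met by 15.1% of all genes, and 1 was lower, met by 13.9%. In bulk tissue, fewer cells of a type and less RNA per cell cannot be told apart.

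*Slc2a5* (Entrez Gene 56485), on chromosome 4 from 150119344 to 150144168, had 161 and 139 TPM in IMQ replicates 10 and 11, against 62.0, 78.9 and 85.9 TPM in the controls. Both IMQ libraries were above every control by a margin larger than the control range. Its mean TPM was 150.1 ± 15.9 (SD, n = 2) after IMQ and 75.6 ± 12.3 (SD, n = 3) in the controls. In normalized counts, which are scaled to a common library size, the values were 13923 and 12782 after IMQ and 5888, 6405 and 7825 in the controls. The log2 fold change was 0.99 (standard error 0.16, 95% confidence interval 0.62 to 1.37, edgeR quasi-likelihood, adjusted p = 0.0203). It stayed between 0.91 and 1.12 with each library left out, but the adjusted p passed 0.05 without control replicate 8 (0.0794), IMQ replicate 10 (0.152) or IMQ replicate 11 (0.1), and in one fit of all 11 libraries (0.477).

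*Slc2a2* (Entrez Gene 20526), on chromosome 3 from 28697903 to 28728361, had 222 and 218 TPM after IMQ and 185, 96.1 and 163 TPM in the controls. The groups did not overlap, but the controls differed among themselves by more than the nearest control differed from the IMQ libraries. The log2 fold change was 0.55 (standard error 0.31, 95% confidence interval -0.18 to 1.28, edgeR quasi-likelihood, adjusted p = 0.575), and 0.28 without control replicate 8. *Slc5a1*, on chromosome 5 from 33104219 to 33162699, had 1009 and 766 TPM after IMQ, within its control range of 636 to 1209 TPM. Its log2 fold change was -0.07 (standard error 0.31, 95% confidence interval -0.81 to 0.66), and its sign turned with single libraries left out. Of the 3 sugar carriers only that for fructose was called, and differences between the carriers were not tested beyond the ratios given further on.

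Among the proximal markers *Fabp1* and *Onecut2* stood higher in both IMQ libraries, as did the sum of the list, which was mostly *Fabp1*. Gene by gene, the fold changes of the list went both ways. *Fabp1*, a fatty acid binding protein gene of the upper small intestine, had the same order of its controls as *Slc2a2*, and *Slc2a5* had another order. *Onecut2* had 7.65, 2.02 and 3.93 TPM in the controls and 10.8 and 13.8 TPM after IMQ, while the values of *Cybrd1* (log2 fold change -0.44), *Lct* (-0.04) and *Gata4* (-0.01) were below 0. Of the 6 proximal markers 3 had a log2 fold change above 0 and 3 below 0, with a median of 0.08. Of these, edgeR called 0 (2 at an unadjusted p under 0.05, 1 by DESeq2). Over all genes, edgeR called 2.95%, with 12.3% at an unadjusted p under 0.05, and DESeq2 called 6.04%. All 6 distal markers tested had values below 0, with a median of -0.91, and edgeR called 0 (2 at an unadjusted p under 0.05, 2 by DESeq2). Their summed level was 165, 255 and 165 TPM in the controls and 153 and 41.5 TPM after IMQ, with *Slc10a2*, the ileal bile acid carrier, at 0.533 to 1.94 TPM. The part of position along the gut in the *Slc2a5* result was not tested.

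None of the 4 genes for peptide and amino acid carriers was called. *Slc15a1* (Entrez Gene 56643), on chromosome 14 from 121459621 to 121505254, had 281 and 206 TPM after IMQ, both within the control range of 193 to 459.7 TPM. Its log2 fold change was -0.48 (standard error 0.34, 95% confidence interval -1.27 to 0.31), and it was -0.17 without control replicate 9 and -0.73 without control replicate 7. *Slc6a19* (Entrez Gene 74338), on chromosome 13 from 73679745 to 73700780, had 363 and 395 TPM after IMQ, also within its control range of 213 to 505 TPM, with a log2 fold change of 0.18 (standard error 0.36, 95% confidence interval -0.66 to 1.01). *Slc15a1* and *Slc6a19* were each lowest in control replicate 7 and highest in control replicate 9 among the controls.

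The genes of the cystine carrier subunits were at like levels. *Slc7a9* (Entrez Gene 30962), on chromosome 7 from 35448727 to 35466034, had 199 and 189.9 TPM after IMQ and 192, 276 and 281 TPM in the controls. In normalized counts it was lower in both IMQ libraries (9855 and 10116) than in every control (10476, 12808 and 14821), whereas in TPM one IMQ library lay above control replicate 7. The log2 fold change was -0.35 (standard error 0.18, 95% confidence interval -0.76 to 0.07, edgeR quasi-likelihood, adjusted p = 0.519), and -0.22 without control replicate 9. *Slc3a1* (Entrez Gene 20532), on chromosome 17 from 85028347 to 85064241, had 195 and 193 TPM after IMQ, inside its control range of 138 to 244 TPM, with a log2 fold change of 0.06 (standard error 0.24). The light subunit was 1.39, 1.55 and 1.15 times the heavy subunit by TPM in the controls, and 1.02 and 0.982 times after IMQ. This ratio was lower in both IMQ libraries, with a difference of -0.43 on the log2 scale of normalized counts (exact two-sided permutation test, p = 0.2, adjusted p = 0.591 over the 13 ratios examined). With 3 libraries against 2 there are 10 arrangements, so the smallest p this test allows is 0.1.

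The ion exchangers were the least and the most variable of the members, with 1.47-fold (*Slc26a3*) and 2.82-fold (*Slc9a3*) between the lowest and the highest of the 5 libraries in normalized counts. *Slc26a3* (Entrez Gene 13487), on chromosome 12 from 31433142 to 31473922, varied 1.08-fold over the control libraries and had 84.3 and 116 TPM after IMQ. Its log2 fold change was -0.04 (standard error 0.18, 95% confidence interval -0.47 to 0.39). *Slc9a3* (Entrez Gene 105243), on chromosome 13 from 74086255 to 74169442, had 68.0 TPM in IMQ replicate 10, under every control, and 179.8 TPM in IMQ replicate 11, above every control. The log2 fold change of 0.49 (standard error 0.40, 95% confidence interval -0.45 to 1.43) became -0.44 with IMQ replicate 11 left out and 1.06 with IMQ replicate 10 left out, so its direction rests on 1 library. The water channel gene *Aqp8*, a colon marker, was also high in IMQ replicate 11 (49.0 TPM) and control replicate 7 (40.9 TPM) and at 0.428 to 4.39 TPM in the other 3 libraries. The apical anion exchanger gene *Slc26a6* was highest in IMQ replicate 11 as well, at 303 TPM against 150.3 to 189 TPM elsewhere. The colon markers *Car1* and *Hoxb13* were at 0 in all 5 libraries. What set IMQ replicate 11 apart was not tested.

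**Figure D2:**
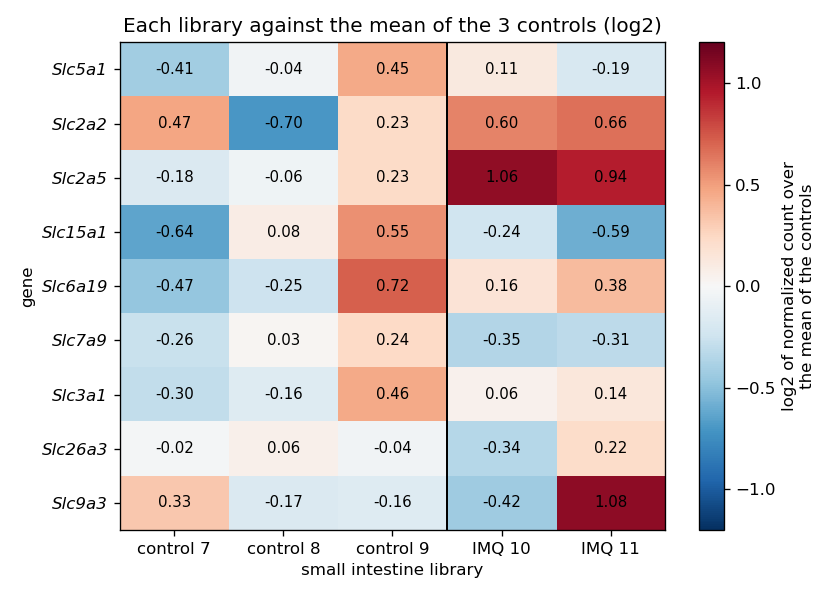
Log2 of the normalized count of each transporter gene in each small intestine library relative to the mean log2 value of the 3 controls, with controls left of the line and IMQ libraries right of it. *Slc2a5* was at 1.06 and 0.94 in the IMQ libraries, and *Slc9a3* was at -0.42 and 1.08.

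Across the 5 libraries the members did not rise and fall as one group. Control replicate 9 had the highest value of *Slc5a1*, *Slc15a1*, *Slc6a19*, *Slc7a9* and *Slc3a1*, and control replicate 7 the lowest of *Slc5a1*, *Slc15a1*, *Slc6a19*, *Slc3a1* and *Slc2a5*. The steadiest pair was *Slc5a1* and *Slc3a1*, whose ratio had an SD of 0.18 on the log2 scale over the 5 libraries and varied 1.36-fold. Next came *Slc6a19* and *Slc3a1*, with an SD of 0.19. The subunit pair *Slc7a9* and *Slc3a1* had an SD of 0.28, smaller than that of all but 4 of the 36 pairs. *Slc15a1* and *Slc9a3* varied most against each other, by 5.18-fold, with an SD of 0.98. These are descriptions over 5 libraries that share their scaling.

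Among the 13731 genes that reached a mean of 100 normalized counts, the profiles most like *Slc2a5* were those of *Rasgrp1*, *9930111J21Rik1* and *Prcp*, with root mean square differences of 0.06 to 0.08 in centred log2 counts. For *Slc5a1* the nearest were *Prss30*, *Lysmd3* and *Xiap* (0.04 to 0.05), and for *Slc2a2* they were *Gm19283*, *Tacr1* and *Gm11166* (0.08 to 0.10). *Slc15a1* was nearest to *Tesk2*, *Pof1b* and *Bach1*, *Slc6a19* to *Tuft1* and *Tmem140*, and *Slc3a1* to *Grina*, *Cdkn1a* and *Max*. The nearest genes of *Slc7a9* were *Pla2g10*, *Lurap1l* and *Med14*, and those of *Slc26a3* were *Nlrp6*, *Myh14* and *B4galnt2*. *Slc9a3* had no gene within 0.2, its nearest being *Baiap2l1* (0.20), *Muc13* (0.22) and *Mocs3* (0.23), whereas 127 genes lay within 0.2 of *Slc2a5* and 3795 within 0.2 of *Slc26a3*.

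Epithelial markers gave a second scale, because all 10 had a log2 fold change below 0 in the small intestine, with a median of -0.27. Against 12.3% of all genes, 1 of these 10 markers had an unadjusted p under 0.05, and edgeR and DESeq2 called 0. Relative to their mean in the same library, *Slc2a5* was at -2.79, -2.68 and -2.62 on the log2 scale in the controls and at -1.22 and -1.64 after IMQ. The difference was 1.27, with both IMQ libraries above all controls (exact two-sided permutation test, p = 0.1, the smallest this design allows, adjusted p = 0.591). On this scale *Slc2a2* was also higher in both IMQ libraries, by 0.90 (p = 0.2 from the same exact permutation test), and *Slc7a9* overlapped between the groups. The other members, *Slc5a1*, *Slc15a1*, *Slc6a19*, *Slc3a1*, *Slc26a3* and *Slc9a3*, also overlapped. None of the 13 ratios could pass 0.05 in this design.

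**Figure D3:**
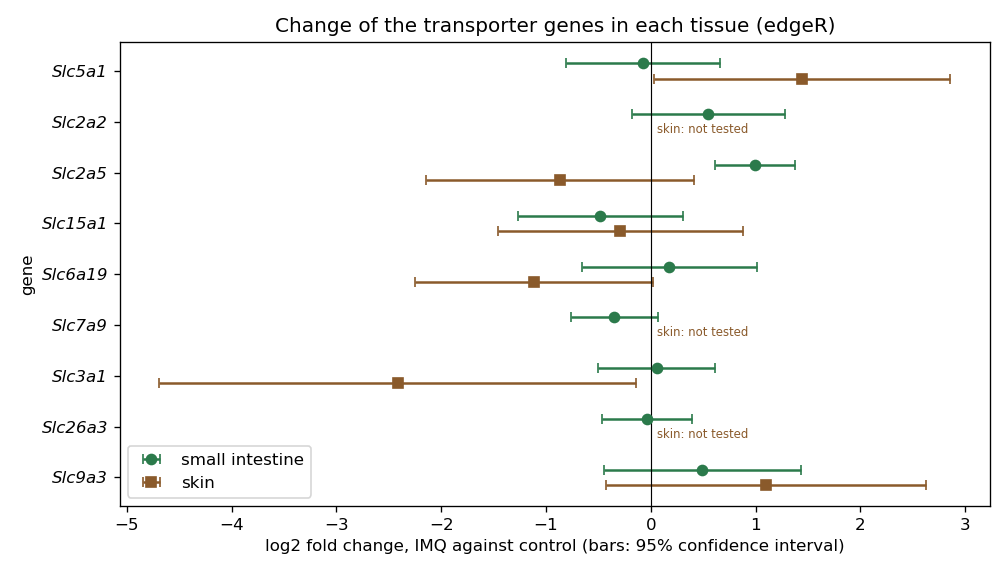
Log2 fold change of each transporter gene in IMQ-treated against control mice, with its 95% confidence interval, in the small intestine (circles) and the skin (squares). *Slc2a5* in the small intestine (0.62 to 1.37) is the interval that clears 0 with an adjusted p under 0.05. The 3 genes marked as not tested in skin had libraries without a count.

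Among genes that work beside the transporters, the count for the other apical transporters differed by tool. In the small intestine edgeR called 0 of 32 other apical transporters, although 12 had an unadjusted p under 0.05, against 12.3% of all genes, and DESeq2 called 5, against 6.04%. The median log2 fold change of this list was -0.02, as was that of all genes. Of 15 basolateral transporters edgeR called 0, with 2 at an unadjusted p under 0.05 and 0 by DESeq2, and a median of -0.13. The 5 partner and scaffold genes had 0 by each of these counts and a median of -0.16.

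Of the 14 brush border digestive enzymes tested, edgeR called 0, with 5 at an unadjusted p under 0.05 and 3 by DESeq2, and the median was -0.16. Over all genes, 12.3% had an unadjusted p under 0.05 in edgeR, and DESeq2 called 6.04%. The 12 brush border structural genes had 0 by each count and a median of -0.05, and the 19 enterocyte regulators had 0 by edgeR, 4 at an unadjusted p under 0.05, 1 by DESeq2 and a median of -0.04. Crypt and secretory markers had 0 by edgeR and 1 each by DESeq2, with 2 each at an unadjusted p under 0.05, and all 6 and all 7 values lay below 0, with medians of -0.27 and -0.28. Too few markers of colon (2), pancreas (2) and epidermis (1) could be tested to describe those lists, and edgeR called 0 of them.

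Calls by edgeR were found among immune markers, where 4 of 13 rose, against 2.77% of all genes called higher, and 6 had values below 0. The risers were the leukocyte gene *Ptprc* (log2 fold change 1.71), the macrophage genes *Adgre1* (2.16) and *Cd68* (2.54) and the complement gene *C1qa* (2.04). The endothelial gene *Pecam1* rose as well (1.84), and these 5 calls were kept with each library left out. *Csf1r*, another macrophage gene of the list, was at 0.38 and was not called. The lymphocyte and plasma cell genes *Cd3e* (-0.69), *Cd79a* (-0.55), *Mzb1* (-0.36) and *Jchain* (-0.63) were not called either. The summed immune markers were 1719, 1240.0 and 1195 TPM in the controls and 1594 and 1366 TPM after IMQ, of which *Jchain* made up 1388, 987 and 921 TPM and 782 and 649.7 TPM. The part of the immune markers in the *Slc2a5* result was not tested.

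**Figure D4:**
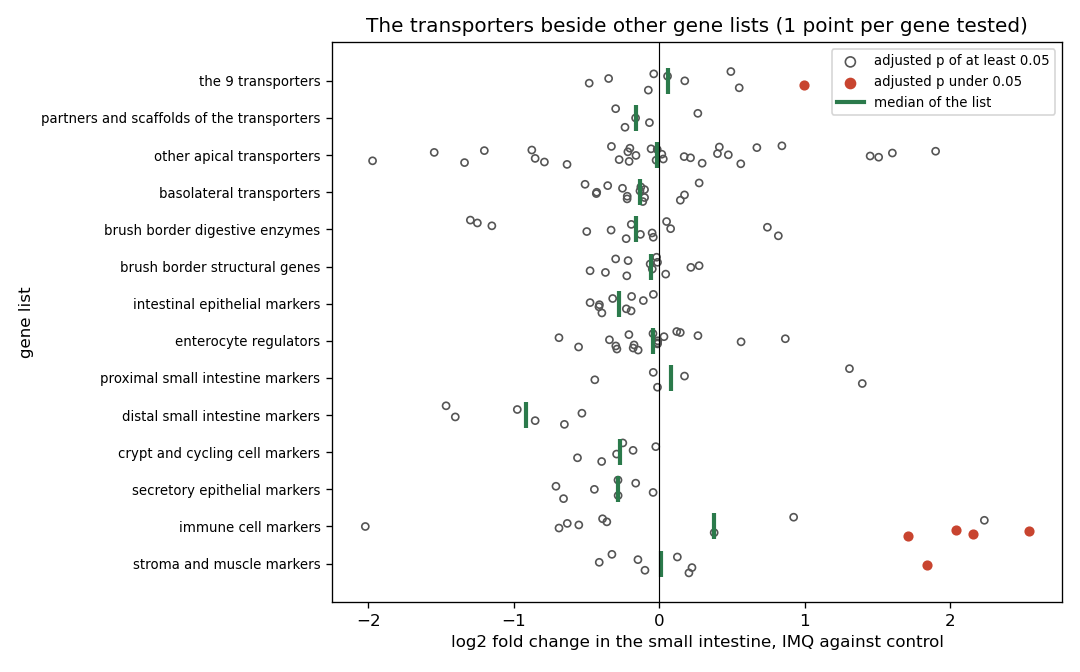
Log2 fold change in the small intestine of every tested gene of 14 lists, 1 point per gene, with called genes filled and list medians as vertical lines. The called points are *Slc2a5*, 4 immune markers and 1 stroma and muscle list gene. The distal markers have the lowest median, at -0.91.

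In the skin, which does not absorb nutrients, the 9 genes were at low levels. In 5 of them counts were found in all 6 libraries at 32 or more, and the other 4 were near absence outside control replicate 2. Control small intestine exceeded control skin in every library pair for all 9 genes, with log2 fold changes from 5.16 (*Slc15a1*) upward. The fitted 9.15 of *Slc2a2* and 8.82 of *Slc7a9* rest on skin control replicate 2, the only control skin library with their counts. All 9 were called higher, against 28.8% of genes, and 33.4% of genes did not overlap in this direction, but the genes are known for the intestine and passed the filter through it, so this count supports nothing. Both had 0 counts in skin control replicates 1 and 3, and against a floor of 3 counts per library in these, without replicate 2, their level in control small intestine was at least 3711-fold and 4281-fold higher. TMM scaling moved the median of all genes in this comparison from -0.03 to -0.15.

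*Slc5a1*, *Slc15a1*, *Slc6a19* and *Slc2a5* kept counts in all 6 skin libraries. *Slc5a1* had 14.2, 31.9 and 6.26 TPM in the skin controls and 54.5, 50.1 and 24.99 TPM after IMQ. *Slc15a1* had 14.5, 23.7 and 6.68 TPM in the controls and 15.5, 11.1 and 6.62 TPM after IMQ, and *Slc6a19* 11.7, 14.1 and 6.54 TPM against 6.91, 4.59 and 1.94 TPM. *Slc2a5* stood at 2.85, 5.42 and 1.23 TPM in the controls and 1.31, 2.64 and 1.76 TPM after IMQ. All 4 were highest among the controls in replicate 2 and lowest in replicate 3.

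*Slc2a2*, *Slc7a9*, *Slc3a1* and *Slc26a3* were near absence outside skin control replicate 2. In that library *Slc2a2* had 71 counts, against 0 in the other 5, and *Slc7a9* had 100 counts, against 4 in IMQ replicate 4 and 0 elsewhere. *Slc3a1* had 17, 76 and 15 counts in the controls and 11, 7 and 1 after IMQ, and *Slc26a3* had 14, 50 and 14 against 0, 5 and 0. As a share of the mean in control small intestine, these 4 genes were at 0.744% to 1.07% in skin control replicate 2, next to the median of 1.13% over the 147 intestinal genes. *Slc5a1*, *Slc2a5*, *Slc15a1* and *Slc6a19* were at 3.40% to 7.17% in that library and *Slc9a3* at 1.21%. *Slc9a3* had 91, 132 and 32 counts in the controls and 272, 148 and 88 after IMQ.

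**Figure D5:**
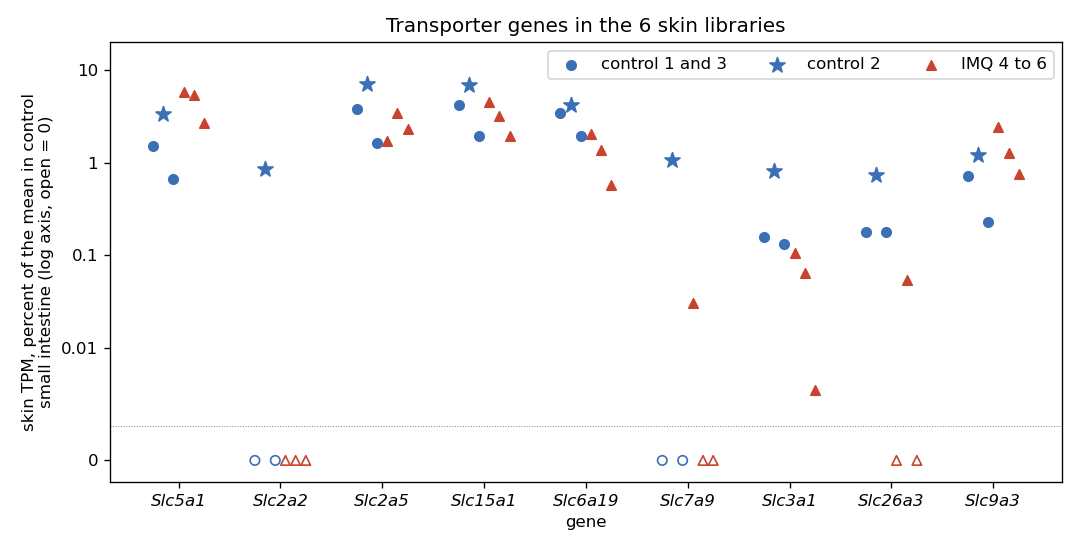
TPM of each transporter gene in the 6 skin libraries as a percentage of its mean TPM in control small intestine, on a log axis with open symbols at 0. The star is control replicate 2, which lies at 0.744% to 1.07% for *Slc2a2*, *Slc7a9*, *Slc3a1* and *Slc26a3*, above every other skin library.

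In IMQ-treated skin, edgeR's test called 0 of the 6 members tested, against 6.74% of 20512 genes. DESeq2 also called 0, against 14.8% of genes, and 2 of the 6 had an unadjusted p under 0.05 in edgeR, against 23.2%. *Slc2a2*, *Slc7a9* and *Slc26a3* were not tested because libraries had no count. *Slc5a1* had the largest positive value, a log2 fold change of 1.44 (standard error 0.60, 95% confidence interval 0.03 to 2.86, edgeR quasi-likelihood, adjusted p = 0.209). Its groups overlapped only through control replicate 2. Without that library the value was 2.28 and the adjusted p was 0.0358 in edgeR, so the library decided the call. *Slc3a1* was lower in every IMQ-treated library, as were 13.3% of all genes, with a log2 fold change of -2.42 (standard error 0.96, edgeR quasi-likelihood, adjusted p = 0.193) at 1 to 17 counts outside replicate 2, and -1.06 without it. The log2 fold change was -1.11 for *Slc6a19* (standard error 0.48, 95% confidence interval -2.25 to 0.02), -0.86 for *Slc2a5* (standard error 0.54), 1.10 for *Slc9a3* (standard error 0.64) and -0.29 for *Slc15a1* (standard error 0.49). Without control replicate 2 the value was -0.16 for *Slc2a5*, 0.27 for *Slc15a1* and 1.72 for *Slc9a3*. *Slc9a3* was at 0.55 without IMQ replicate 4 and 0.67 without control replicate 3, and *Slc15a1* at -0.65 without the latter.

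Of the 22 other apical transporters tested in skin, edgeR called 5, against 6.74% of all genes, of which 4 rose and 1 fell. The risers were *Slc5a9*, a sugar cotransporter gene (2.04), *Slc34a2*, a phosphate cotransporter gene (2.17), *Slc28a2*, a nucleoside carrier gene (1.27), and *Abcg2*, an efflux pump gene (1.11), and *Slc1a1*, the gene of a glutamate carrier, fell by 0.94 on the log2 scale. The scaffold gene *Pdzk1* fell by 3.17, from 4.79, 6.94 and 3.10 TPM to 0.421, 0.245 and 0.753 TPM in IMQ-treated skin. Of the 13 basolateral transporters tested, 2 were called: *Abcc3* rose (1.33) and the iron exporter gene *Slc40a1* fell by 1.13. These calls depended on single libraries. Of the 6 fits with 1 library left out, 4 kept *Abcg2* and *Slc40a1*, 3 kept *Pdzk1* and *Slc34a2*, 2 kept *Slc5a9* and *Slc1a1*, and 1 kept *Slc28a2* and *Abcc3*, with adjusted p-values of up to 0.181 in edgeR.

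The 11 libraries in one model gave a test of whether the transporters responded differently in gut and skin. It treated gut and skin libraries as independent, although some may have come from the same mouse. Of the 6 members with a count in every library, edgeR called 0, against 2.55% of 18108 genes, DESeq2 called 1, against 7.07%, and 2 had an unadjusted p under 0.05 in edgeR, against 16.9%. *Slc2a5* had a difference of 1.87 on the log2 scale, small intestine minus skin (standard error 0.62, 95% confidence interval 0.49 to 3.25, edgeR quasi-likelihood, adjusted p = 0.155). *Slc2a5* was called by the Wald test of DESeq2 (adjusted p = 0.0438) and by edgeR without skin control replicate 3 (0.0177), and the value was 1.14 without skin control replicate 2. For *Slc3a1* the difference was 2.46 (standard error 1.01, edgeR quasi-likelihood, adjusted p = 0.243), and 1.11 without skin control replicate 2. *Slc5a1* had the opposite sign, -1.50 (standard error 0.79, 95% confidence interval -3.24 to 0.25, edgeR quasi-likelihood, adjusted p = 0.380), and reached -2.37 with an adjusted p of 0.0451 without skin control replicate 2. The differences for *Slc6a19* (1.31, standard error 0.67), *Slc9a3* (-0.59, standard error 0.84) and *Slc15a1* (-0.17, standard error 0.69) had intervals that spanned 0, and with single libraries left out that of *Slc9a3* ran from -1.56 to -0.024.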

How the data were processed

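RNA from 6 skin and 5 small intestine samples was sequenced as 100-bp paired-end reads. Per the methods and the submitters' processing notes, reads were trimmed with Trimmomatic, aligned to mm10 with HISAT2 2.1.0 and quantified with StringTie 2.1.3b. The authors deposited whole-number read counts without normalization, and also FPKM and TPM scaled by transcript length and library size. The counting tool and its strand setting are not given in the sources used here, so *Slc2a2*, *Slc6a19*, *Slc7a9*, *Slc3a1* and *Slc9a3*, which overlap other annotated genes, are less certain. TPM served for levels and was not tested, since it keeps no depth.

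Genes with at least 1 count in every library of a comparison (filterByExpr between tissues) were normalized by relative log expression and tested with edgeR 4.0.16 (R 4.3.3) by the quasi-likelihood test, with an adjusted p under 0.05 as the threshold. The standard error was the log2 fold change divided by the square root of F. Ratios used exact permutation tests. The procedure was tested on simulated data. Alternatives were TMM, upper quartile, DESeq2 1.42.0, limma 3.58.1 with voom or on log2(FPKM + 0.01) and log2(FPKM + 1), other filters, one fit of all 11 libraries, and each library left out. Named genes were the 9 members, called genes of 16 lists, genes a comparison turned on, and the 3 genes nearest to each member. Some of these genes are not reported here. The members and lists were chosen with earlier results of these data known. Promoters and positions came from RefSeq on GRCm38.p6, and exons from GENCODE.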

Additional observations from a re-analysis of the deposited data

Results flagged for a closer look

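By the interaction term of edgeR's quasi-likelihood model (adjusted p under 0.05), the response to IMQ differed between the tissues for 7 genes of the lists. It was called for 0 of the 6 transporters that could be tested, and for 2.55% of 18108 genes. The lists held 172 distinct genes, and those without a count in every library could not be tested. The number of distinct list genes tested is not given here, so the 7 cannot be set against this share. Values are differences on the log2 scale, small intestine minus skin. Among transport genes, *Pdzk1* had 3.12 (adjusted p = 0.0143), *Slc40a1* 1.31 (0.0153), *Abcg2* -1.30 (0.0397) and *Slc34a2* -3.70 (0.0406). *Slc34a2* had 38.5, 73.7 and 171 TPM in control and 30.2 and 34.1 TPM in IMQ-treated small intestine, against 12.4, 12.7 and 4.90 TPM in control and 54.3, 41.1 and 25.4 TPM in IMQ-treated skin. The epithelial factor gene *Elf3* had -1.38 (0.0470), *Cd68* 1.97 (0.00667) and *S100a9* -7.22 (0.000913). With each of the 11 libraries left out in turn, the call was kept in 10 fits for *Slc40a1*, 9 for *Pdzk1*, 4 for *Slc34a2*, 3 for *Abcg2* and 2 for *Elf3*. These fits are not reported here for *Cd68* and *S100a9*. The explanations were not tested.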

How the results depend on the processing

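Small numbers of libraries limit every value, above all the 2 IMQ-treated small intestines, and for the skin the few counts of *Slc3a1*, *Slc26a3*, *Slc7a9* and *Slc2a2* limit it as well. The number of genes called moved from 588 to 1206 in the small intestine, from 1382 to 3030 in the skin and from 462 to 1281 for the interaction with the Wald test of DESeq2, and to 894 in the skin with limma on log2(FPKM + 1). With single libraries left out it ranged from 294 (without IMQ replicate 10) to 801, from 258 (without IMQ replicate 5) to 2521 (without control replicate 2) and from 144 (without small intestine IMQ replicate 10) to 1072 (without skin control replicate 2). The number of members called in the small intestine was 1, and 0 in one fit of all 11 libraries, and it ranged from 0 to 1 with libraries left out. In the skin it was 0 and ranged from 0 to 1, and for the interaction it was 0, 1 with DESeq2, and ranged from 0 to 1. Signs turned with a library left out in the small intestine for *Slc5a1* (-0.25 to 0.18), *Slc6a19* (-0.035 to 0.62), *Slc3a1* (-0.081 to 0.32), *Slc26a3* (-0.34 to 0.22), *Slc9a3* (-0.44 to 1.06), *Pdzk1* (-0.24 to 0.081) and *Elf3* (-0.15 to 0.071), and for *Slc15a1* in the skin (-0.65 to 0.27) and the interaction (-0.76 to 0.21). Signs also turned for the log2 ratio of *Slc26a3* to *Slc9a3* (-0.86 to 0.081) and for the ratios to the epithelial markers of *Slc5a1* (-0.069 to 0.53), *Slc15a1* (-0.47 to 0.18), *Slc7a9* (-0.19 to 0.060) and *Slc9a3* (-0.010 to 1.2). Of 372 values of the members under alternatives, 353 kept their direction and side of the threshold. This count pools all comparisons. It includes control small intestine against control skin, where all 9 members stayed called, and genes that stayed uncalled, so it does not measure how firm the *Slc2a5* call is. The causes were not tested. No paired analysis was possible because the tissues that came from one mouse are not given, and the running replicate numbers do not show it. The tests between tissues and of the interaction treated all libraries as independent.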

Other observations

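Other apical carriers of the small intestine had values that stood apart without passing the edgeR test, and they were named after their values were seen. The 5 that DESeq2 called included *Slc13a1* and *Npc1l1* but not *Slc46a1*. The proton-coupled folate carrier gene *Slc46a1* had 76.7, 15.7 and 21.8 TPM in the controls and 124 and 169 TPM after IMQ (log2 fold change 1.90, edgeR quasi-likelihood, adjusted p = 0.266). The sulfate carrier gene *Slc13a1* had 23.3, 7.91 and 12.9 TPM in the controls and 43.7 and 42.1 TPM after IMQ (1.51, edgeR quasi-likelihood, adjusted p = 0.159). *Npc1l1*, the gene of the cholesterol uptake protein, had 358, 410.1 and 364 TPM in the controls and 244 and 168 TPM after IMQ (-0.88, edgeR quasi-likelihood, adjusted p = 0.0893). In the controls, *Slc46a1* and *Slc13a1* shared the order of *Slc2a2* and *Fabp1*, with replicate 7 highest and replicate 8 lowest.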
